A study of Mus musculus with 8 samples.

Results

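C/EBPα regions were examined around 9 genes of interleukin-6 (IL-6), STAT and SOCS signalling in mouse bone marrow progenitors: Il6ra, Il6st, Jak2, Stat3, Stat5a, Stat5b, Socs1, Socs3 and Cish. A region is a stretch covered by a peak of any of 6 anti-C/EBPα libraries, with peaks that overlapped by at least 1 bp joined, and it was taken when it lay within 20 kb of one of these genes in mm10. Of 259446 regions in the series, 168 met this rule. The assay was CUT&RUN: an antibody brings a nuclease to the bound protein, and the DNA cut free beside it is sequenced.

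The cells were sorted from bone marrow as lineage-negative, FLT3-positive progenitors with high to intermediate KIT. They came from mice of 3 genotypes of an enhancer 165 kb from Zeb2, named WT, DC and DE in the labels. DC and DE are enhancer variants whose sequence changes are not given in the sources used here, and WT is the reference genotype here. Each genotype had 2 anti-C/EBPα libraries, replicate 1 in batch 1 and replicate 2 in batch 2. The labels give neither age nor strain, nor whether libraries came from separate animals, so p-values measure the spread between these libraries, which may be technical. In the limma tests below, that spread is largely pooled over regions. The 2 IgG control libraries, both from WT cells, were not analysed here.

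IL-6 binds its receptor chain IL-6Rα (Il6ra), and the pair recruits gp130 (Il6st), the signalling chain shared by the IL-6 family. Janus kinases, JAK2 among them, then phosphorylate STAT3, which dimerises and acts as a transcription factor. STAT5A and STAT5B act below the receptors for erythropoietin, thrombopoietin and GM-CSF, and STAT3 also acts below the G-CSF and FLT3 receptors in myeloid and dendritic progenitors. SOCS1, SOCS3 and CIS (Cish) are induced by STATs and switch the receptors off again. C/EBPα is a transcription factor of granulocyte and monocyte progenitors.

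The regions differed in how reproducibly they were called. In all 6 libraries, 37 of the 168 were called (22.0%, against 9.05% of all regions), and 46 were called in both WT libraries (27.4%, against 12.1%). In exactly 1 library, 87 were called (51.8%, against 76.7%), of which 51 were found in DC replicate 1 alone (30.4%, against 43.6%). These single-library regions were weak, with a median of 8 and at most 21 fragments over the summit.

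By library, 69 and 66 of the 168 regions were called in WT, 126 and 61 in DC, with 58 and 68 in DE. The high count of DC replicate 1 goes with its list of 169943 peaks, against 50221 to 82080 in the other 5 libraries. With each library cut to the 50221 peaks of the shortest list by −log10 q, the counts were 56 and 65 in WT, then 71 and 61 in DC, then 57 and 66 in DE. An exact permutation test of the log2 number over whole lists gave p = 1 for DC against WT, 0.667 for DE against WT and 0.667 for DC against DE (two-sided, n = 2 libraries each). The smallest p this design allows is 0.33.

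**Figure D1:**
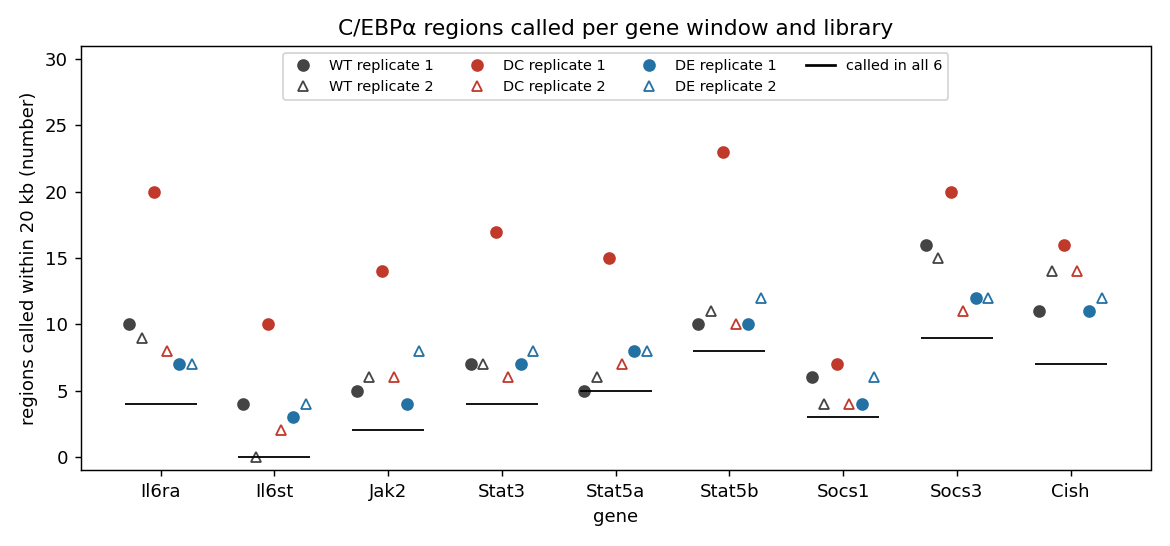
Number of C/EBPα regions called within 20 kb of each gene (y axis) in each of the 6 libraries (points; filled circles replicate 1, open triangles replicate 2), with a bar at the number called in all 6. DC replicate 1 has the most calls at each gene, and the bar is highest at Socs3, with 9, and at 0 for Il6st.

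The genes formed a wide order by shared regions, as the plot of calls per gene shows. Regions called in all 6 libraries numbered 9 around Socs3, 8 around Stat5b, 7 around Cish, 5 around Stat5a, 4 each around Il6ra and Stat3, 3 around Socs1, 2 around Jak2 and 0 around Il6st. The median of 21631 protein-coding genes was 1, and 41.5% had none. Socs3 is a short gene, and its window of 44.3 kb held 20.3 shared regions per 100 kb, a density that 0.037% of coding genes reached. Cish had 15.2 per 100 kb, reached by 0.356%. Jak2 had 1.97 per 100 kb, beside 1.32 for the median coding gene.

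These densities describe binding around the genes and do not assign a region to a gene. Stat5b, Stat5a and Stat3 lie side by side on chromosome 11, and 19 of the 168 regions fell in 2 or more windows. Another coding gene was nearer than the member gene for 39 of the 168, 10 of them among the 37 shared ones. Of the 37, 9 lay within 1 kb of a gene start, 9 elsewhere inside the gene and 19 outside it. Their summits, the highest points of the peaks, fell within 100 bp of each other across the 6 libraries in 29 of 37, with a median range of 42 bp against 67 bp over all shared regions.

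Signal is given below as the pileup, the number of fragments over the summit, recovered as a whole number from the deposited fold enrichment and p-value. Scaled pileups were divided by a factor for each library that brings the 23480 regions called in all 6 libraries to the same median level. By the mean of log2 scaled pileup over the 6 libraries, 6 of the 37 were among the strongest 5% of these 23480. Places among the shared regions below use this mean. They lay at the Il6ra start, downstream of Il6ra, at the Stat3 start, 0.92 kb inside Stat3 and upstream of Cish (2 regions). Distances run from the edge of a region to the nearest start of the gene, either a listed one or the upstream end of the gene. A region that overlaps a start is said to lie at it.

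**Figure D2:**
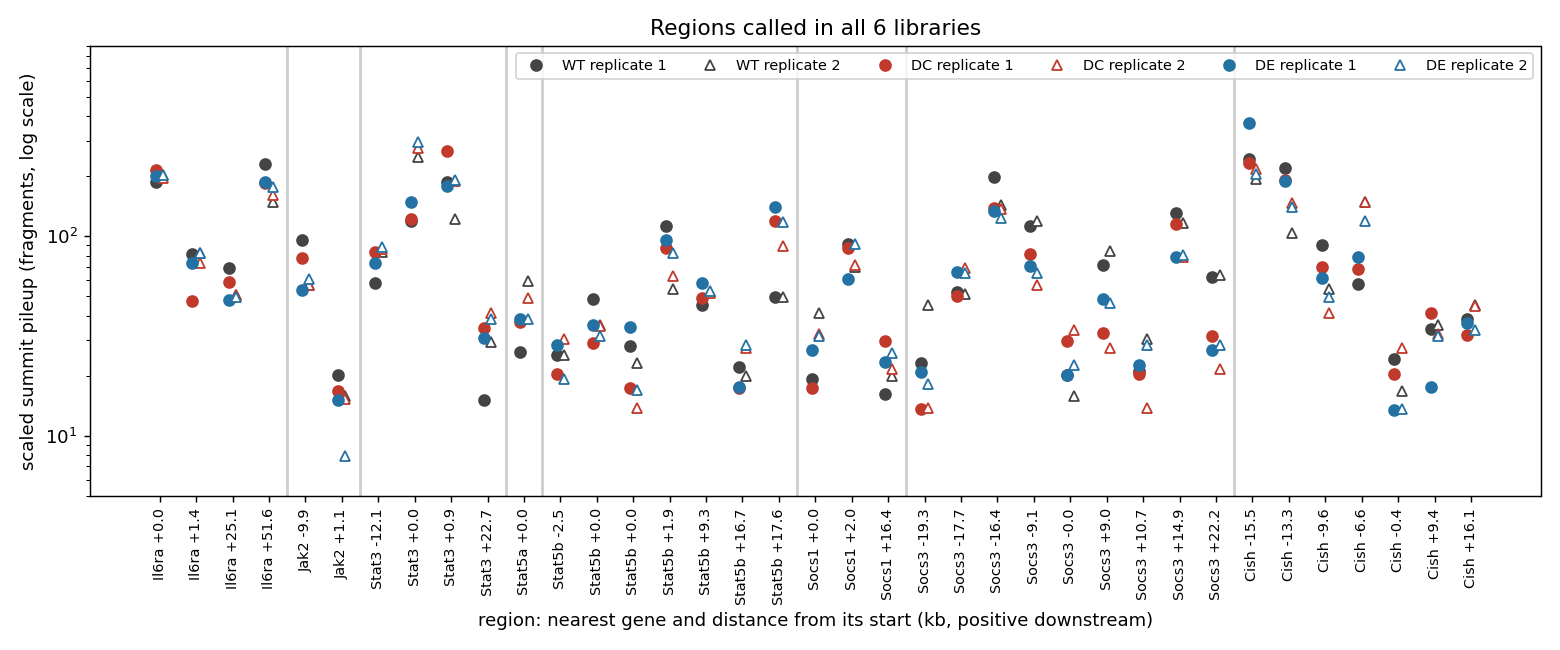
Scaled summit pileup in fragments (log y axis) of the regions called in all 6 libraries, grouped by gene and labelled by distance from the start in kb (x axis); points are single libraries. The values reach their highest at the Il6ra and Stat3 starts and upstream of Cish, and at the Stat5b region 17.6 kb from the start both WT points lie below the 4 variant points.

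Of the receptor chains, Il6ra had 4 shared regions and Il6st had 0. The Il6ra start carried a strong region in every library (chr3:89912805-89913921, mm10). Its pileups were 186 and 193 fragments in WT, 349 and 128 in DC, with 239 and 180 in DE. Scaled, these became 188 and 203 in WT, then 216 and 196 in DC, then 200 and 204 in DE. The scaled values of the genotypes overlap, and the mean of their log2 values was among the strongest 2.28% of shared regions. The 6 summits lay 94 to 142 bases upstream of the start. The promoter is printed because its signal was strong and even across the libraries, and capitals mark the span of the 6 summits widened by 5 bases (RefSeq, GRCm38.p6, minus strand, chr3:89913197-89913446, the 250 bases upstream of the start).
Il6ra promoter: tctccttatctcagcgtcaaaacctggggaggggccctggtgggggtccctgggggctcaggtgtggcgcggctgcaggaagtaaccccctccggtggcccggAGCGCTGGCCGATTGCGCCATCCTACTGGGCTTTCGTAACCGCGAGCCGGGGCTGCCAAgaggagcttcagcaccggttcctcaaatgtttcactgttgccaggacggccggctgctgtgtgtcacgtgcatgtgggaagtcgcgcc

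A further strong region lay 51.6 kb downstream of the Il6ra start and 2142 bp from She, an adaptor gene (chr3:89860988-89861593). Its scaled pileups were 230 and 148 in WT, 184 and 161 in DC, with 187 and 176 in DE, among the strongest 3.10%. The variants lie between the WT libraries there. Inside Il6ra, 1.39 kb downstream of the start, scaled pileups were 81.7 and 81.9 in WT, then 47.6 and 73.6 in DC, then 73.6 and 82.7 in DE. Both DC values were below both WT values, and the difference did not pass the test (log2 −0.47 ± 0.27 SE; limma with batch as a term, adjusted p = 0.376). Summed over the 4 shared regions, Il6ra carried 569 and 483 in WT, 506 and 482 in DC, with 508 and 512 in DE, and these sums overlap.

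Il6st, which encodes gp130, had 17 regions in its window, and none was called in both WT libraries. At its start a peak of 12 fragments was called in WT replicate 1 alone. The region with the highest mean was inside the gene, 10.2 kb downstream of the start (chr13:112474284-112474621). It was called in all 4 variant libraries, at 60 and 21 fragments in DC and 31 and 22 in DE, with deposited folds of 28.9 and 16.1 for DC, 12.6 and 16.3 for DE. Neither WT library had a call there. With background at the library's floor, its smallest value in that library, up to 5 fragments in WT replicate 1 and 4 in WT replicate 2 could have gone uncalled. Limits given for other regions take background at the median multiple of the floor among the libraries with a call there. Scaled, these limits are 5.0 and 4.2, below the 37.1 and 32.2 of DC and the 25.9 and 24.9 of DE. An uncalled library has no value, so no test was made.

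Jak2, the kinase, had 2 shared regions. The stronger lay 9.9 kb upstream of the start (chr19:29241432-29241905), with scaled pileups of 95.9 and 56.7 in WT, then 77.8 and 56.7 in DC, then 53.5 and 61.2 in DE. The genotypes overlap. The other, 1.08 kb inside the gene, ran from 7.9 to 20.2 and was weak, with 94.2% of shared regions at or above it. A region ending 23 bp before the Jak2 start (chr19:29251174-29251780) was called in both WT libraries at 8 and 24 fragments, in DC replicate 2 at 11 and in DE replicate 2 at 13. The batch 1 libraries of DC and DE had no call at the Jak2 start, where up to 9 and 12 fragments could have gone uncalled. These limits follow the batch 2 libraries, whose background was 3.06 to 3.55 times the floor. WT replicate 1 had 1.29 times its floor, and a background that low would give lower limits.

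By scaled pileup, Stat3 had the strongest promoter signal among the STAT genes. A region over its start (chr11:100939344-100940201) had scaled pileups of 119 and 249 in WT, 122 and 278 in DC, with 149 and 298 in DE. Replicate 2 exceeded replicate 1 in every genotype, and the genotypes overlap. Its deposited folds were 8.87 and 8.59 in WT, below the 15.0 and 15.4 of the Stat5b start (chr11:100822443-100822704). In DC they were 19.0 and 15.2, beside 15.5 and 15.8 at Stat5b, and in DE 12.2 and 19.8, beside 11.1 and 18.4. Local background moved with the batch at the Stat3 start. It was 9.32, 8.49 and 8.88 times the library floor in the batch 1 libraries of WT, DC and DE. In batch 2 it was 29.6, 29.9 and 30.2 times. Its part in the result was not tested. All 6 summits sat at the same base, 29 bases upstream of a listed start. The 30 bases around it are printed for that reason, with the summit base and 5 bases to each side in capitals (RefSeq, GRCm38.p6, minus strand, chr11:100939555-100939584).
Stat3 start: tcgcccggagGCCTCAGGGTGgcctagcca

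A neighbouring region 0.92 kb inside Stat3 (chr11:100938009-100938616) had scaled pileups of 187 and 122 in WT, then 267 and 190 in DC, then 179 and 191 in DE. Both DC libraries were above both WT libraries, but the difference did not pass (log2 0.58 ± 0.21 SE; limma with batch as a term, adjusted p = 0.114). A region 22.7 kb inside the gene (chr11:100916479-100916865) had 15.1 and 29.4 in WT, 34.6 and 41.4 in DC, with 30.9 and 38.5 in DE. There all 4 variant libraries were above both WT libraries. Neither difference passed, with log2 0.84 ± 0.36 (adjusted p = 0.184) in DC and 0.71 ± 0.36 (adjusted p = 0.413) in DE by limma with batch as a term. The 4 shared regions nearer to Stat3 than to the other member genes all had a higher mean in both variants than in WT. The region 12.1 kb upstream of the start lay nearer to Cavin1, another coding gene, at 4080 bp. Over the 4 regions the medians were log2 0.43 in DC and 0.29 in DE, beside −0.0202 and −0.00397 over all 23480 regions. All 4 were also higher in both variants by the deposited fold, at medians of log2 0.62 and 0.45.

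Stat5a and Stat5b encode closely related STATs and lie 347 bp apart. Stat5a had 1 shared region of its own, at the start (chr11:100860237-100860621), with scaled pileups of 26.2 and 59.9 in WT, then 37.1 and 49.1 in DC, then 38.5 and 38.5 in DE. The WT libraries span the values of the variants. Stat5b had 7 shared regions nearest to it, spread along the gene. The one with the highest mean lay inside the gene, 17.6 kb downstream of the nearest listed start (chr11:100804464-100804984). It had 49 and 47 fragments in WT, 193 and 58 in DC, with 167 and 104 in DE. Scaled, these were 49.4 and 49.4 in WT, then 119 and 88.9 in DC, then 140 and 118 in DE. All 4 variant libraries were above both WT libraries, while DC and DE overlap. Within batches, DC was 2.41 times WT in batch 1 and 1.80 times in batch 2, and DE was 2.83 and 2.39 times WT.

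The other Stat5b regions did not share this order. The adjoining shared region (chr11:100805525-100805889) had 22.2 and 20.0 in WT, 17.3 and 27.6 in DC, with 17.6 and 28.3 in DE. A stronger region 1.92 kb from a listed start (chr11:100847872-100848656) had 113 and 54.6 in WT, then 87.7 and 62.9 in DC, then 96.2 and 82.7 in DE. Its variant libraries fall between the WT libraries. The region at a listed Stat5b start (chr11:100822443-100822704) had 48.4 and 35.7 in WT, 29.0 and 35.3 in DC, with 36.0 and 31.7 in DE. Both DC values were below both WT values, without passing (log2 −0.38 ± 0.34; limma with batch as a term, adjusted p = 0.634). The region at the upstream end of Stat5b (chr11:100858555-100859222) had 28.3 and 23.1 in WT, 17.3 and 13.8 in DC, with 35.1 and 17.0 in DE. Both DC values were again lower, without passing (log2 −0.73 ± 0.39; same limma fit, adjusted p = 0.342), and its summits spread over 382 bp. Over the 7 regions, 3 were higher and 4 lower than WT in DC, and 4 were higher and 3 lower in DE. The median difference from WT was log2 −0.01 in DC and 0.08 in DE.

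Socs1, an inhibitor that binds Janus kinases, had 3 shared regions. The strongest lay 310 bp beyond the gene's end (chr16:10782999-10783498), with scaled pileups of 91.8 and 70.4 in WT, 87.7 and 72.1 in DC, with 61.1 and 91.7 in DE. The region at the start (chr16:10785051-10785708) had 19.2 and 41.0 in WT, then 17.3 and 32.2 in DC, then 26.8 and 31.7 in DE. Replicate 2 exceeded replicate 1 in each genotype at the start, and the genotypes overlap at both sites.

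Cish, a STAT5 target whose product CIS binds cytokine receptors, had its strongest regions upstream, within the neighbouring kinase gene Mapkapk3. The one 15.5 kb upstream of the Cish start (chr9:107279995-107281199) was the strongest region of the group, among the top 1.38% of shared regions. Its scaled pileups were 243 and 194 in WT, 232 and 216 in DC, with 368 and 205 in DE. The next, 13.3 kb upstream (chr9:107282800-107283346), had 221 and 104 in WT, then 192 and 147 in DC, then 188 and 139 in DE. At both, the genotypes overlap. A region 6.58 kb upstream (chr9:107289274-107290084) differed by batch, with 57.5 and 148 in WT, 68.6 and 149 in DC, with 78.6 and 119 in DE. Background was at the floor there in batch 1 and 7.61, 7.92 and 8.0 times the floor in batch 2, and its part in the result was not tested.

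By contrast the Cish start itself was weakly marked. The region over it (chr9:107296381-107296702) had 13 and 22 fragments in WT, 17 and 11 in DC and 11 in DE replicate 1. DE replicate 2 had no call, where up to 3 fragments could have gone uncalled. The 5 summits lay 64 to 119 bases upstream of the start. Both strands of the listed promoters were searched, from 250 bases before to 50 bases after each start. The C/EBP letters TTGCNNAA were in none of those of the 9 genes and in 10.8% of 32851 promoters. Only exact matches were counted, so a site that departs from these letters would be missed. The upstream ends of Stat3, Stat5a, Stat5b and Socs3, used as starts for distances, had no listed promoter of their own. The region 5 bp from the Socs3 start was thus not searched. The letters TTCNNNGAA, read by STAT dimers, were in 8.30% of promoters and were found for Socs3 and Cish. Cish had 2 copies, which 0.457% of promoters had. Its promoter is printed with the span of the 5 summits, widened by 5 bases, in capitals (RefSeq, GRCm38.p6, plus strand, chr9:107296409-107296658), and the first 20 transcribed bases with both STAT motifs in capitals (chr9:107296659-107296678).
Cish promoter: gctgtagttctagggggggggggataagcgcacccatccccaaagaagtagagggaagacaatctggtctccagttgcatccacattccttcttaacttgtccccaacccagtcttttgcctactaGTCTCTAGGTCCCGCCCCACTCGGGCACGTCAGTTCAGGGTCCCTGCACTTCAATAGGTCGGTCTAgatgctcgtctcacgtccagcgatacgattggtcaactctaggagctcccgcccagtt
Cish STAT motifs: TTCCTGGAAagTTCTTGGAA

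Socs3 encodes the inhibitor that binds gp130 and JAK2, and its surroundings held 9 shared regions, the most of the 9 genes. The strongest of them lay 16.4 kb upstream, within the lipid enzyme gene Pgs1 (chr11:117986685-117987645). Scaled pileups there were 198 and 143 in WT, then 138 and 136 in DC, then 134 and 123 in DE. The 4 variant values all lay below the lower WT value, without passing the test (limma with batch as a term, adjusted p = 0.555 for DC and 0.508 for DE). A region at 9.07 kb upstream (chr11:117979411-117980039) lay nearer to Pgs1, at 6258 bp, than to Socs3. Its scaled pileups were 112 and 119 in WT, 81.5 and 56.7 in DC, with 71.1 and 65.7 in DE. It had the same order and differences of log2 −0.76 ± 0.26 in DC (adjusted p = 0.0714) and −0.75 ± 0.26 in DE (adjusted p = 0.134) by the same fit. A region 19.3 kb upstream and also within Pgs1 (chr11:117989606-117990317), had 23.2 and 45.2 in WT, 13.6 and 13.8 in DC, with 20.9 and 18.1 in DE. All variant values lay below both WT values, without passing. The differences by that limma fit were log2 −1.24 ± 0.40 in DC (adjusted p = 0.0552) and −0.73 ± 0.40 in DE (adjusted p = 0.469). Summits of this region spread over 216 bp across the libraries, so its pileups were not all read at the same place.

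Downstream of Socs3 lay the pair of regions with the largest differences of DC from WT among the 37; for DE against WT the largest was at Stat5b. The region 8.96 kb from the start (chr11:117959806-117960410) had 71 and 80 fragments in WT, then 53 and 18 in DC, then 58 and 41 in DE. Scaled, these were 71.6 and 84.0 in WT, 32.7 and 27.6 in DC, with 48.5 and 46.4 in DE. The 3 genotypes do not overlap, with WT highest and DC lowest. The region 22.2 kb from the start (chr11:117946404-117947160) had 62 and 61 fragments in WT, then 51 and 14 in DC, then 32 and 25 in DE. Scaled, these were 62.6 and 64.1 in WT, 31.5 and 21.5 in DC, with 26.8 and 28.3 in DE. All variant values lay below both WT values, and DC and DE overlap. Within batches, DC was 0.504 and 0.335 of WT and DE 0.428 and 0.442 of WT at this region, and at the nearer one DC was 0.457 and 0.328 and DE 0.677 and 0.552 of WT. Across the libraries the summits spread over 328 bp at the nearer region and 271 bp at the farther, against 27 bp at the Stat5b region. The pileups compared at these Socs3 regions were therefore not all read at the same place.

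**Figure D3:**
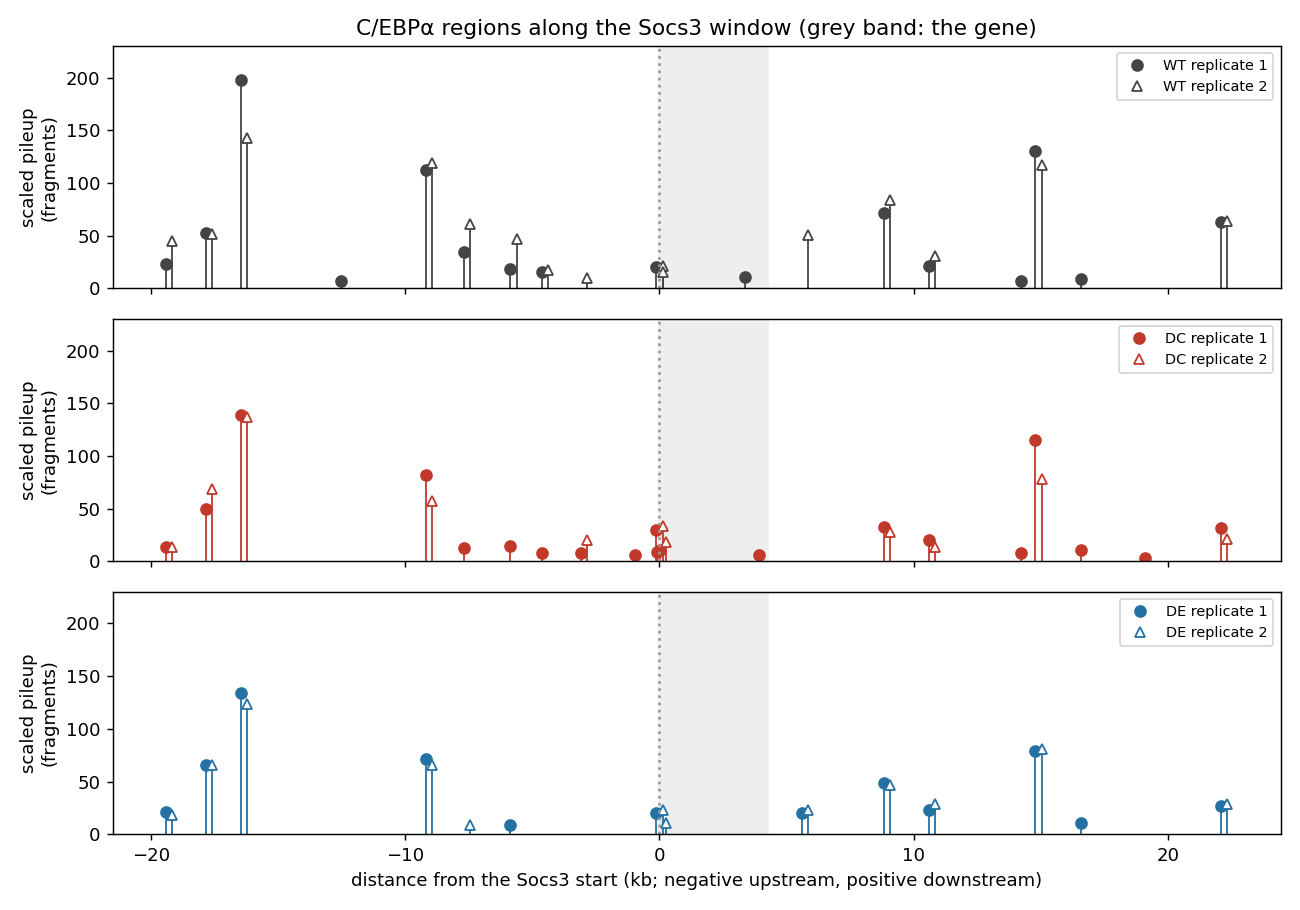
Scaled summit pileup in fragments (y axis) of the C/EBPα regions along the Socs3 window by distance from the start in kb (x axis), with 1 panel per genotype; stems are single libraries and the grey band is the gene. The regions near 9 and 22 kb downstream are taller in WT than in DC and DE under the median scaling drawn here, and the region at the start is not.

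The Socs3 start went the other way. The region 5 bp from it (chr11:117970341-117970626) had scaled pileups of 20.2 and 15.8 in WT, then 29.6 and 33.7 in DC, then 20.1 and 22.7 in DE. Both DC libraries were above both WT libraries, without passing (log2 0.83 ± 0.38; limma with batch as a term, adjusted p = 0.247). Of the 9 Socs3 regions, 7 had a lower mean in DC and 7 in DE than in WT, with medians of log2 −0.60 and −0.63. Summed over the 9, scaled pileups were 691 and 669 in WT, 513 and 451 in DC, with 489 and 479 in DE. The variant sums lay below both WT sums. These sums include upstream regions that lay within Pgs1 or nearer to it than to Socs3. By the deposited fold, 7 of 9 were lower in DC and 6 of 9 in DE, at medians of log2 −0.26 and −0.34. The sign depends on the scaling: set to each library's floor, the median of all 23480 regions moved by log2 0.86 in DC and 0.55 in DE. That scaling moves every region by the same amount, so it cannot change the place of the Socs3 regions relative to the median of all regions. The Socs3 regions then stood higher than WT in 6 of 9 in DC and in 4 of 9 in DE, at medians of log2 0.26 and −0.08, beside medians of 0.84 and 0.55 over all regions. A further Socs3 start, inside the gene, was the only Socs3 start whose promoter was searched. That promoter holds 1 STAT motif, and the 30 bases around the motif are printed with it in capitals (RefSeq, GRCm38.p6, minus strand, chr11:117969502-117969531).
Socs3 STAT motif: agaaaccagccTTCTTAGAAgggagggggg

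The tests between genotypes were made with limma on log2 scaled pileup over all 23480 regions called in every library, with Benjamini-Hochberg adjustment and a threshold of 0.05. With 2 libraries a genotype, limma took most of its estimate of the spread from all regions together. Its p-values rest largely on that pooled spread and little on the spread at the region itself. Without batch in the fit, no region of the series passed in any comparison (0.0% of regions). At an unadjusted p under 0.05 stood 5 of the 37 regions for DC against WT, 3 for DE against WT and 0 for DC against DE, beside 7.98%, 4.87% and 2.38% of all regions. With batch as a term, 3 of 37 passed for DC against WT (4.32% of all regions), 1 higher and 2 lower (3.15% and 1.17%). For DE against WT, 2 passed (1.38%), 1 higher and 1 lower (1.12% and 0.264%). For DC against DE, 0 passed (0.0298%, split into 0.00852% higher and 0.0213% lower). In this fit, an unadjusted p under 0.05 was found for 8 of the 37 in DC against WT (16.98% of all regions), 6 in DE against WT (11.98%) and 2 in DC against DE (8.19%). The median difference over the 37 was log2 −0.02 in DC and −0.04 in DE, with 17 and 16 of 37 higher than in WT.

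The region that was higher was the one inside Stat5b, 17.6 kb from the start. It differed from WT by log2 1.06 ± 0.25 in DC (SE; 95% interval 0.56 to 1.56; adjusted p = 0.00426) and by 1.38 ± 0.25 in DE (0.88 to 1.87; adjusted p = 0.000252) by limma with batch as a term. Without the batch term the adjusted p-values were 0.351 and 0.540. The 2 lower ones were the downstream Socs3 regions. The one at 8.96 kb differed by log2 −1.37 ± 0.30 in DC (−1.97 to −0.77; adjusted p = 0.00169) and by −0.71 ± 0.30 in DE (−1.31 to −0.11; adjusted p = 0.288), in the same fit. The one at 22.2 kb differed by −1.28 ± 0.34 in DC (−1.95 to −0.62; adjusted p = 0.0115) and −1.20 ± 0.34 in DE (−1.87 to −0.53; adjusted p = 0.0435). Without the batch term their adjusted p-values were 0.265 and 0.349 in DC, and 0.923 for the second in DE. DC and DE share the WT libraries, so their agreement at a region is not independent.

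**Figure D4:**
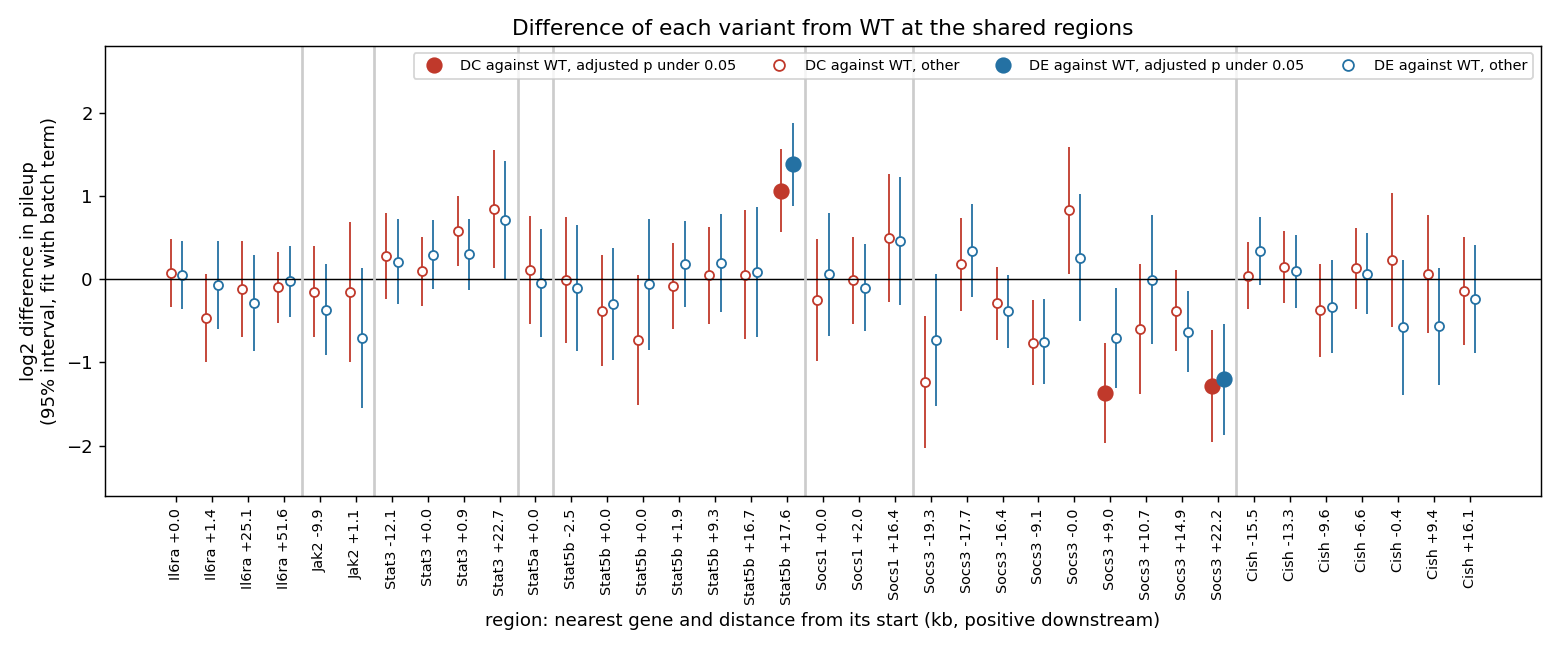
Difference of DC (red) and DE (blue) from WT at each shared region in log2 units (y axis; bars are 95% intervals from limma with batch as a term), by gene and distance from the start in kb (x axis); filled points have an adjusted p under 0.05. Filled points are higher at the Stat5b region 17.6 kb from its start and lower at the Socs3 regions 9.0 and 22.2 kb from its start, and scaling by the floor instead moves all DC points up by 0.86 and all DE points up by 0.55.

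These calls rest on few libraries and on the scaling. With batch as a term and 1 library left out at a time, the Stat5b difference in DE passed in 6 of 6 runs and in DC in 3 of 6. It was lost in DC without WT replicate 1 (adjusted p = 0.115), DC replicate 1 (0.312) or DC replicate 2 (0.0955). The Socs3 difference at 8.96 kb passed in DC in 4 of 6 runs, and was lost without WT replicate 2 (0.142) or DC replicate 2 (0.179). The one at 22.2 kb passed in DC in 2 of 6, both of which left out a DE library, and in DE in 0 of 6 (adjusted p from 0.0557 to 0.383). Scaling by the floor gave log2 1.92 in DC and 1.93 in DE at Stat5b, and −0.51 and −0.43 in DC at the nearer and farther Socs3 regions, none of them passing with batch as a term. With the deposited fold in place of the pileup, the Stat5b difference in DE passed (log2 1.46, adjusted p = 0.0463) and the other 4 did not. These were Stat5b in DC (1.15, adjusted p = 0.0646), the nearer Socs3 region in DC (−1.45, adjusted p = 0.0515), and the farther one in DC (−1.38, adjusted p = 0.0782) and DE (−1.23, adjusted p = 0.219), all by limma with batch as a term. For the 37 regions as a whole, the half-width of the 95% interval had a median of log2 0.58 with batch as a term, so a difference of that size could not be told from none at many of them.

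The fits cannot use a region that lacks a call in some library. Among the 168 were 13 regions with a call in each library of a genotype and no call in a second genotype. In both DC and neither WT library, 7 were called (1.52% of all regions), and in both DE and neither WT, 3 (0.846%). In both DC and neither DE library there were 5 (1.02%), and in both DE and neither DC there was 1 (0.276%). The reverse of the WT patterns was found once each, called in both WT and neither DC (0.39%) and in both WT and neither DE (0.638%). DC replicate 1, with the longest list, makes calls in DC easier.

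Besides the Il6st region, a region inside Stat3 (chr11:100888308-100888752, 50.8 kb from the start) was called in all 4 variant libraries and in neither WT library. It had 22 and 10 fragments in DC and 16 and 12 in DE, or 13.6, 15.3, 13.4 and 13.6 scaled. Up to 5 and 4 fragments could have gone uncalled in WT. Jak2 held 2 regions inside the gene without a WT call. One 3.94 kb from the start (chr19:29255748-29255923) had 30 and 16 fragments in DC and 29 in DE replicate 2, and one 19.4 kb from it (chr19:29271177-29271432) had 13 and 8 in DE and 16 in DC replicate 1. Cish held 2 called in DC alone, at 26 and 11 fragments inside the gene (chr9:107299311-107299536) and at 30 and 8 within Mapkapk3 (chr9:107281665-107281833). A region inside Stat3 (chr11:100897419-100897781) had 10 and 9 fragments in DC and no call in WT or DE. Inside Stat5b (chr11:100814583-100814749), DC had 12 and 14 and WT replicate 2 had 14, with no call in DE.

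Around Socs3, a region inside the gene and 0.15 kb from its start (chr11:117969967-117970183) had 18 and 12 fragments in DC, 9 in DE replicate 2 and no call in WT. Another, 2.97 kb upstream (chr11:117973303-117973472), had 12 and 13 in DC and 9 in WT replicate 2, with no call in DE.

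**Figure D5:**
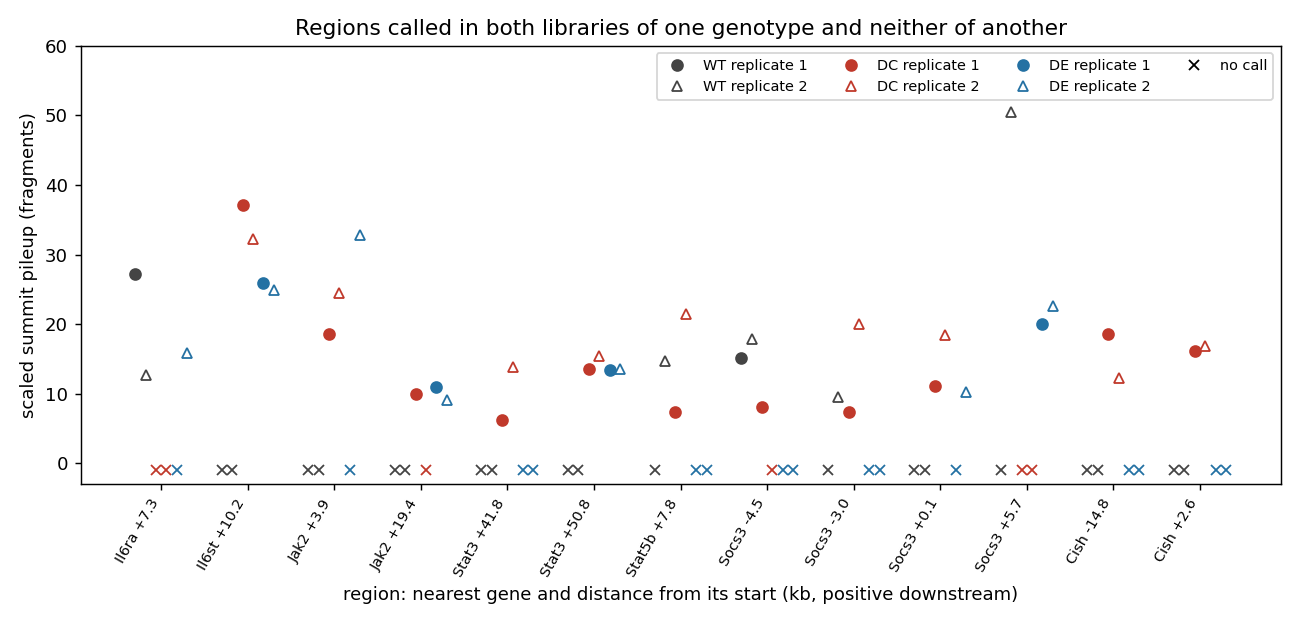
Scaled summit pileup in fragments (y axis) of the 13 regions with calls in each library of a genotype and none in a second genotype, by gene and distance from the start in kb (x axis); crosses mark libraries with no call and have no value. The Il6st region has 4 variant points between 24.9 and 37.1 and crosses for both WT libraries.

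In the opposite direction, a region inside Il6ra (chr3:89905512-89905847, 7.35 kb from the start) had 27 and 12 fragments in WT and 14 in DE replicate 2, with no call in DC. There up to 4 fragments in DC replicate 1 and 3 in DC replicate 2 could have gone uncalled. A region 4.51 kb upstream of Socs3 (chr11:117974851-117975140) had 15 and 17 in WT and 13 in DC replicate 1, with no call in DE. A region 5.71 kb downstream of the Socs3 start (chr11:117963334-117963657) had 24 and 20 in DE and 48 in WT replicate 2, with no call in DC. Background was high there in the libraries with a call, and at their median multiple of the floor up to 20 fragments in DC replicate 1 could have gone uncalled.

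Other genes of the pathway were described from a list of 38: receptors and ligands, kinases, further STATs and SOCS genes, phosphatases and targets. Their windows held 645 regions, of which 113 were called in all 6 libraries, and around 37 of the 38 genes each WT library had a call at a common region. Without batch in the fit, 0 of the 113 passed limma's test (unadjusted p under 0.05 for 8, 3 and 3 in DC against WT, DE against WT and DC against DE, beside 7.98%, 4.87% and 2.38% of all regions). With batch, 2 were higher and 2 lower in DC (3.15% and 1.17% of all regions, 4.32% in either direction). In DE, 0 were higher and 1 was lower (1.12% and 0.264%, 1.38% in either direction). Between DC and DE, 0 differed (0.0298% in either direction).

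The largest of these differences was near Stat6, the STAT of IL-4 signalling. A region 2.67 kb from the gene (chr10:127639991-127640289) had scaled pileups of 18.2 and 21.0 in WT, then 77.8 and 92.0 in DC, then 40.2 and 38.5 in DE. The 3 genotypes do not overlap, and DC differed from WT by log2 2.11 ± 0.32 (limma with batch as a term, adjusted p = 1.82e-06; 0.0981 without). Another near Stat6 (chr10:127631417-127632338) was lower in DC (log2 −1.34 ± 0.41, adjusted p = 0.0384). A region near Epor, the erythropoietin receptor gene (chr9:21969388-21969620), had 13.1 and 11.6 in WT, 29.0 and 33.7 in DC, with 19.2 and 14.7 in DE (DC log2 1.35 ± 0.40, adjusted p = 0.0345). A region inside Il10rb (chr16:91406645-91407107), also within 20 kb of Ifnar2, had 87.8 and 56.7 in WT, then 35.2 and 21.5 in DC, then 41.0 and 23.8 in DE. It was lower in DC (log2 −1.36 ± 0.32, adjusted p = 0.00431) and in DE (−1.18 ± 0.32, adjusted p = 0.0375) in the fit with batch. The strongest regions of the list lay near Bcl2l1, a survival gene, and the phosphatase genes Ptpn1 and Ptpn11, at mean scaled pileups of 294, 272 and 268.

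Read totals are not in the files, so depth is unknown. The median pileup at shared regions was 34 and 34 fragments in WT, 58 and 24 in DC, with 42 and 32 in DE, and the background floor was 1.33 and 0.902, 1.11 and 0.368, and 1.53 and 0.408. Binding near marker genes was checked against the label of the cells. Regions called in both WT libraries lay within 20 kb of 7 of 7 neutrophil and monocyte genes and 4 of 4 progenitor genes, and of 1 of 6 genes of other tissues, the epithelial Cdh1. Alb, Ttr, Ins2, Myh6 and Krt5 had none. The median coding gene also had 1 such region, so its presence alone does not identify the cells. Cdh1 had 5, beside 7 for Flt3, 7 for Spi1, 3 for Kit and 2 for Cd34.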

How the data were processed

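C/EBPα CUT&RUN peak lists, 1 for each of 6 libraries, were analysed. Per the submitters' processing notes, MACS2 2.2.9.1, HOMER, Bowtie2, SAMtools and Trimmomatic were used with mm10; the role of each, and any control given to the peak caller, are not given in the sources used here. In the deposited lists the authors give each peak's fold enrichment over local background (a ratio), its −log10 p-value and −log10 q-value, a score of 10 times the −log10 q, and the summit's offset in bases. Every peak's −log10 q was checked to be at least 1.0, a q of 0.1. The deposited merged coordinate table was not used.

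Peaks were joined at 1 bp overlap in pandas 2.3.3 and numpy 2.4.6 (Python 3.11.15). Gene positions, listed starts and promoter sequences came from RefSeq (GRCm38.p6, the same assembly as mm10). MACS2 adds 1 to the pileup and to the background before it takes their ratio, and its p-value is the Poisson tail above the pileup, so each pair of values was solved for a whole pileup. Solutions within 5% of 1 fragment's step in the p-value were found for 99.986% of the peaks in the library with the lowest share. Where 2 were found, the nearer one with a background not below the library's floor was taken. No whole reads or totals are recovered by this, so depth is unknown and the number of libraries limits the precision.

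Log2 scaled pileups were compared by limma 3.58.1 in R 4.3.3 with a trended variance, at a Benjamini-Hochberg adjusted p of 0.05, in a fit without batch and another with it. The labels state the batch, so it is a valid pairing. Batch differences correlated between genotypes across 23480 regions (r = 0.548 for WT and DC, 0.415 for WT and DE, 0.384 for DC and DE), a description over regions that share libraries. A library without a call has no value, so only regions called in all 6 were tested. The recovery and the fits were tested on simulated data. Alternatives were the floor scaling, the deposited fold, a q of 0.01, regions called in the 4 libraries compared, windows of 0, 10 and 50 kb, joining at 100 bp, equal list lengths and leaving out each library.

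Regions named are, for each gene, the one with the highest mean scaled pileup and the one nearest its start within 1 kb. For that mean, an uncalled library counted as no fragments. Also named are those past the threshold in either fit and those with calls in each library of a genotype and none in a second genotype. Other shared regions were named after their values were seen. Of the wider list, genes with a region past the threshold and the 3 with the highest pileup are named. The members and gene lists were chosen with earlier results of these data known. The planned motif counts under distal summits were not made, since no genome sequence was used here; promoters alone were searched.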

Additional observations from a re-analysis of the deposited data

How the results depend on the processing

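Without batch in the fit, 0 of the 37 regions passed in any of the 3 comparisons under every alternative, so calls exist only with batch as a term (the replicate block), which gave 3 for DC and 2 for DE against WT and 0 for DC against DE. Combined with that block, for DC and DE in turn, a q of 0.01 gave 4 and 2, regions called in the 4 libraries compared gave 3 and 1, and windows of 0, 10 and 50 kb gave 1, 2 and 3 for DC and 1, 1 and 2 for DE. The deposited fold gave 0 and 1, and the floor scaling gave 0 for both. Leaving out 1 library with the block gave 0 to 6 calls for DC, with 5 and 6 where DE replicate 1 or 2 was left out, and 1 for DE in every run. The region near Socs3 at 22.2 kb, which did not pass for DC against DE (log2 −0.08), changed sign under the floor scaling, with or without the block (0.22), and with 1 library left out ranged from −0.36 to 0.19 without the block and from −0.39 to 0.22 with it (0.088 without DE replicate 2). Regions called per library averaged 74.7, and 34.8 and 114.5 with windows of 0 and 50 kb. The count of 13 regions called in one genotype and not another ran from 9 to 16. What limits these results is 2 libraries a genotype and an unknown depth.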
